A study of Mus musculus with 2 samples.

Results

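Potassium channel genes were taken here as all genes whose symbol starts with Kcn and that had at least 200 UMIs (unique molecular identifiers, each standing for 1 captured transcript) summed over the authors' merged table of both libraries, apart from 1 gene that the rule leaves out. That gave 65 of the 20210 genes of the table. Of its 95 Kcn genes, 29 had fewer than 200 UMIs. Just inside the limit was Kcnh4 with 205 UMIs and just outside it was Kcns3 with 198 UMIs. By role or group, 25 members encode pore subunits of voltage-gated channels and 15 encode auxiliary or silent subunits. A further 7, with Kcnu1, were placed in the calcium- and sodium-activated group by family, 8 encode inward rectifiers and 7 encode two-pore leak channels. The remaining 3, Kcnq1ot1, Kcnmb4os2 and Kcnd3os, are non-coding RNAs named after a channel gene and encode no channel, so the symbol takes in more than channels.

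The measurement was droplet single-cell RNA sequencing with 3′ end counting. Cells carrying the tdTomato fluorescent reporter were sorted from a dissection of the arcuate nucleus with the median eminence, the part of the hypothalamus that holds feeding, growth and reproductive neurons and the tanycytes lining the ventricle. The mice were CD-1 at postnatal day 10. One library, called dHet, came from Ins2-Cre;tdTomato mice that were also heterozygous for both Irx3 and Irx5, and the other, called control, came from Ins2-Cre;tdTomato mice with no Irx mutation stated. Both groups thus carried the Ins2-Cre driver and the reporter allele, and only cells with a history of Cre activity were sampled. Each library was a pool of 5 animals, so there were 2 values per gene and class and no spread between animals could be estimated. No test of genotype was possible, and the intervals given are exact 95% intervals that cover counting error only.

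Potassium channels let potassium leave the cell and so pull the membrane toward rest. Voltage-gated channels end the action potential and space the next one, calcium- and sodium-activated channels shape the pause that follows firing, and inward rectifiers and two-pore leak channels set the resting potential and carry the inhibitory action of many transmitters and peptides. In the arcuate nucleus such channels link the firing of feeding and reproductive neurons to hormones and nutrients, and in astrocytes they take up potassium released by neurons.

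After filtering, 3951 dHet and 3559 control cells remained, with a median of 17679 UMIs per dHet and 17436 UMIs per control cell and a median mitochondrial share of 5.97% in dHet and 4.69% in control cells. The deposited matrices held 77288047 UMIs in the dHet library and 71174068 in the control library, and 5 cell barcodes occurred in both. Irx3 had 0.558 CPM (UMIs of a gene per 1000000 UMIs of the cells) in dHet and 1.31 CPM in control cells, a ratio of 0.426 (0.288 to 0.62), and Irx5 had 1.54 CPM in dHet and 2.55 CPM in control cells, a ratio of 0.605 (0.474 to 0.768). No source used here states whether the counted 3′ ends lie inside the deleted sequence. Cells were clustered without any Kcn gene and named from marker lists, so that a class name below stands for cells that are like that type by its markers. The 12 neuron markers summed to 8680 CPM in dHet and 8710 CPM in control neurons, against 311 CPM in dHet and 269 CPM in control astrocytes. Neurons numbered 2983 in the dHet and 2405 in the control library, and glia 821 in the dHet and 889 in the control library. Neurons carried more UMIs per cell than astrocytes, with a median of 21477 against 6468.5 in the dHet library and 23655 against 5678 in the control library.

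Some of the channel genes differed in level between neurons and glia. With a fold of 2 in both libraries as the limit (5 CPM added to each side), 21 of the 65 members were higher in neurons than in glia, where 11.3% of all 14450 genes compared were. A further 6 members were lower in neurons, where 16.3% of all genes were. The remaining 38 stayed inside the limit in at least 1 library. The count higher in neurons depends on the added value, and was 36 with 1 CPM and 7 with 20 CPM. Levels are compared only within a gene, since counts of 3′ ends are not scaled for how well each transcript is captured. Strand use in the counting is not stated in the sources used here, and 24 of the 65 members overlap another gene in their exons, so a share of their counts cannot be assigned with certainty.

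**Figure D1:**
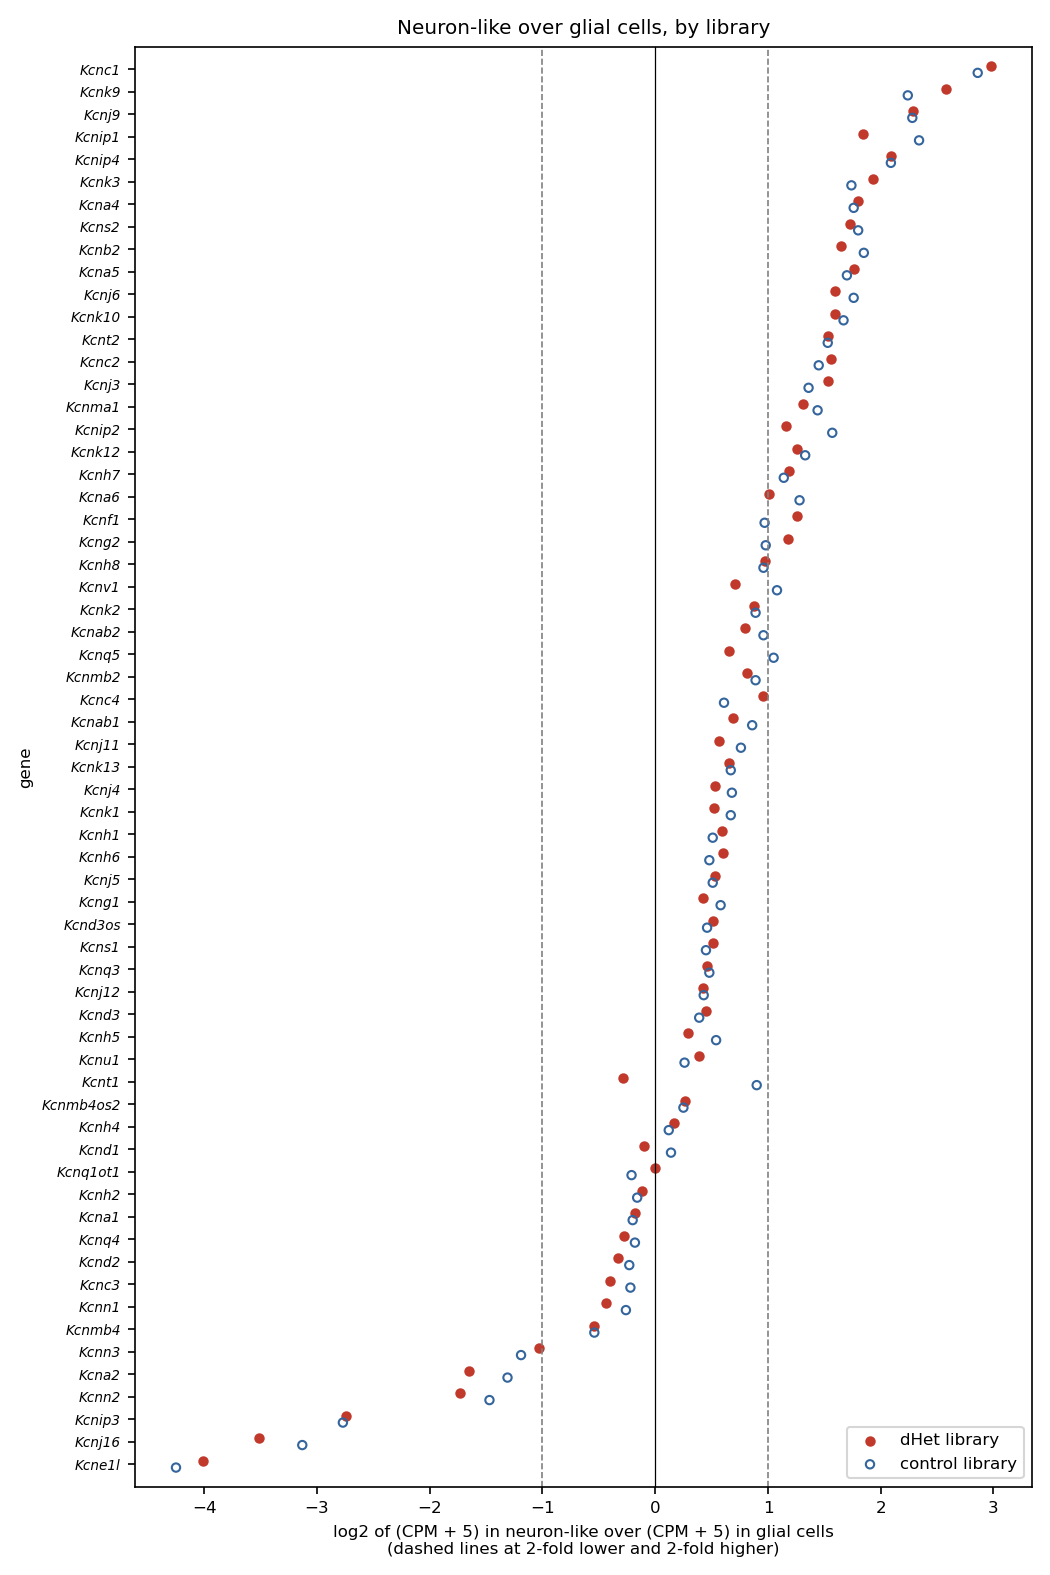
Log2 ratio of the level in neurons over glia for each potassium channel gene, with 5 CPM added to both sides, filled red points for dHet, open blue points for control and genes ordered by the ratio. The dashed lines mark a 2-fold difference and 2 of the 65 members are not drawn. Kcnc1, Kcnj9 and Kcnk9 lie far to the neuron side while Kcne1l, Kcnj16 and Kcnip3 lie far to the glial side in both libraries.

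Among the voltage-gated channels, 8 of 25 were higher in neurons, among them Kcna4, Kcna5, Kcna6, Kcnb2, Kcnc1, Kcnc2 and Kcnh7, and 1, Kcna2, was lower. Kcnc1 encodes Kv3.1, a fast channel that lets neurons fire at high rates. It had 91 CPM in dHet neurons against 7.21 CPM in dHet glia, and 89.8 CPM in control neurons against 8.08 CPM in control glia. The gene was well past the limit in either library. Kcnb2 encodes a delayed rectifier of the Kv2 group and had 39.1 CPM in dHet neurons against 9.08 CPM in dHet glia, and 39.7 CPM in control neurons against 7.42 CPM in control glia. Kcnd2, whose product Kv4.2 carries the fast A-type current that delays firing, was no lower in glia than in neurons. It had 101 CPM in neurons of either library, against 128 CPM in dHet glia and 120 CPM in control glia.

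The glial level of Kcnd2 came from particular cells. In dHet astrocytes it was 254 CPM and in control astrocytes 270 CPM, in oligodendrocyte precursors it was 256 CPM in dHet and 248 CPM in control, and in tanycytes it was 3.19 CPM in dHet and 3.91 CPM in control. Astrocytes and precursors therefore held more than neurons of either library, and tanycytes held little. In oligodendrocytes Kcnd2 stood at 14.2% of its all-cell level in dHet and 19.5% in control. Kcna2, a low-threshold Kv1 channel best known from myelinated axons, was also higher in astrocytes than in neurons. Unlike Kcnd2, it was high in oligodendrocytes too, and in tanycytes it stood near the neuron level. It had 126 CPM in dHet and 125 CPM in control astrocytes, 129 CPM in dHet and 91.7 CPM in control oligodendrocytes, and 25.1 CPM in dHet and 18.9 CPM in control tanycytes, against 22.8 CPM in dHet and 22.5 CPM in control neurons. Kcnh2, which encodes the ERG channel of cardiac repolarisation, was highest in tanycytes at 34.2 CPM in dHet and 33.1 CPM in control, against 2.48 CPM in dHet and 1.18 CPM in control astrocytes.

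Of the 15 auxiliary and silent subunits, 4 were higher in neurons (Kcnip1, Kcnip2, Kcnip4 and Kcns2) and 2 were lower (Kcnip3 and Kcne1l). The KChIP proteins encoded by the Kcnip genes bind Kv4 channels, and their genes divided between cell classes. Kcnip4 had 70.3 CPM in dHet neurons against 12.7 CPM in dHet glia, and 71.5 CPM in control neurons against 13 CPM in control glia. Kcnip3, also known as the calcium-binding repressor DREAM, had 9.15 CPM in dHet neurons against 89.4 CPM in dHet glia, and 9.19 CPM in control neurons against 91.9 CPM in control glia. It was highest in oligodendrocyte precursors, at 272 CPM in dHet and 257 CPM in control, and next in astrocytes, at 147 CPM in dHet and 168 CPM in control. Among the members, the gene that differed most toward glia by the log2 ratio was Kcne1l, an X-linked single-pass subunit of the Kcne family. It had 4.17 CPM in dHet neurons against 143 CPM in dHet glia, and 3.19 CPM in control neurons against 150 CPM in control glia. In astrocytes it reached 240 CPM in dHet and 259 CPM in control, and in tanycytes 103 CPM in dHet and 128 CPM in control.

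The calcium- and sodium-activated channels split as well. Kcnma1, the large-conductance BK channel, and Kcnt2, the sodium-activated channel Slick, were higher in neurons, and the small-conductance channels Kcnn2 and Kcnn3, which carry afterhyperpolarisation, were lower. Kcnma1 had 109 CPM in dHet neurons against 41.1 CPM in dHet glia, and 100 CPM in control neurons against 33.9 CPM in control glia. Kcnn2 had 14.7 CPM in dHet neurons against 60.7 CPM in dHet glia, and 16.2 CPM in control neurons against 53.6 CPM in control glia. Its glial counts lay largely in astrocytes, at 100 CPM in dHet and 103 CPM in control. Kcnmb4, the neuronal β4 subunit of the BK channel, was inside the limit between neurons and glia, but reached 180 CPM in dHet and 106 CPM in control ependymal cells and 117 CPM in dHet and 130 CPM in control oligodendrocyte precursors. Ependymal cells numbered only 45 in the dHet and 70 in the control library.

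Among the 8 inward rectifiers, the G-protein-gated subunits Kcnj3, Kcnj6 and Kcnj9 were higher in neurons, and Kcnj16 was lower. Subunits of this gated group open when inhibitory receptors such as those for GABA and opioids are activated. Kcnj9 had 25.8 CPM in dHet neurons against 1.3 CPM in dHet glia and 25 CPM in control neurons against 1.19 CPM in control glia. Kcnj6 had 13.5 CPM in dHet neurons against 1.15 CPM in dHet glia and 15 CPM in control neurons against 0.927 CPM in control glia. Free RNA from lysed neurons sets a floor for such glial levels: peptide genes that only neurons make stood in glia at a median of 2.67% of their all-cell level in dHet and 1.5% in control, with a highest value of 3.97% in dHet and 4.2% in control. On the same scale Kcnj9 stood at 5.57% in dHet and 5.47% in control glia, just above the highest peptide gene. Kcnj16, known from astrocytes and kidney as Kir5.1, was far lower in neurons, with 0.343 CPM in dHet neurons against 55.9 CPM in dHet glia and 0.744 CPM in control neurons against 45.4 CPM in control glia. Kcnj11, the pore subunit of the ATP-sensitive channel that couples metabolism to firing, was sparse, with 3.49 CPM in dHet and 4.81 CPM in control neurons.

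Of the 7 two-pore channels, Kcnk3, Kcnk9, Kcnk10 and Kcnk12 were higher in neurons and none was lower. Kcnk9 and Kcnk3 encode the acid-sensitive leak channels TASK3 and TASK1, Kcnk2 and Kcnk10 the stretch- and lipid-sensitive channels TREK1 and TREK2, and Kcnk12 and Kcnk13 the halothane-inhibited THIK channels. Kcnk9 had 27.5 CPM in dHet neurons and 19.8 CPM in control neurons, and in glia only 3 UMIs in the dHet and 2 UMIs in the control library. That is 1.68% of its all-cell level in dHet and 1.42% in control, below the highest peptide gene in glia of either library. Kcnk2 had 174 CPM in dHet and 181 CPM in control neurons, and stayed inside the limit because glia held 92.1 CPM in dHet and 95.4 CPM in control. The non-coding RNA Kcnq1ot1, transcribed from the imprinted region on chromosome 7 antisense to Kcnq1, had 415 CPM in dHet and 360 CPM in control neurons, against 416 CPM in dHet and 417 CPM in control glia.

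**Figure D2:**
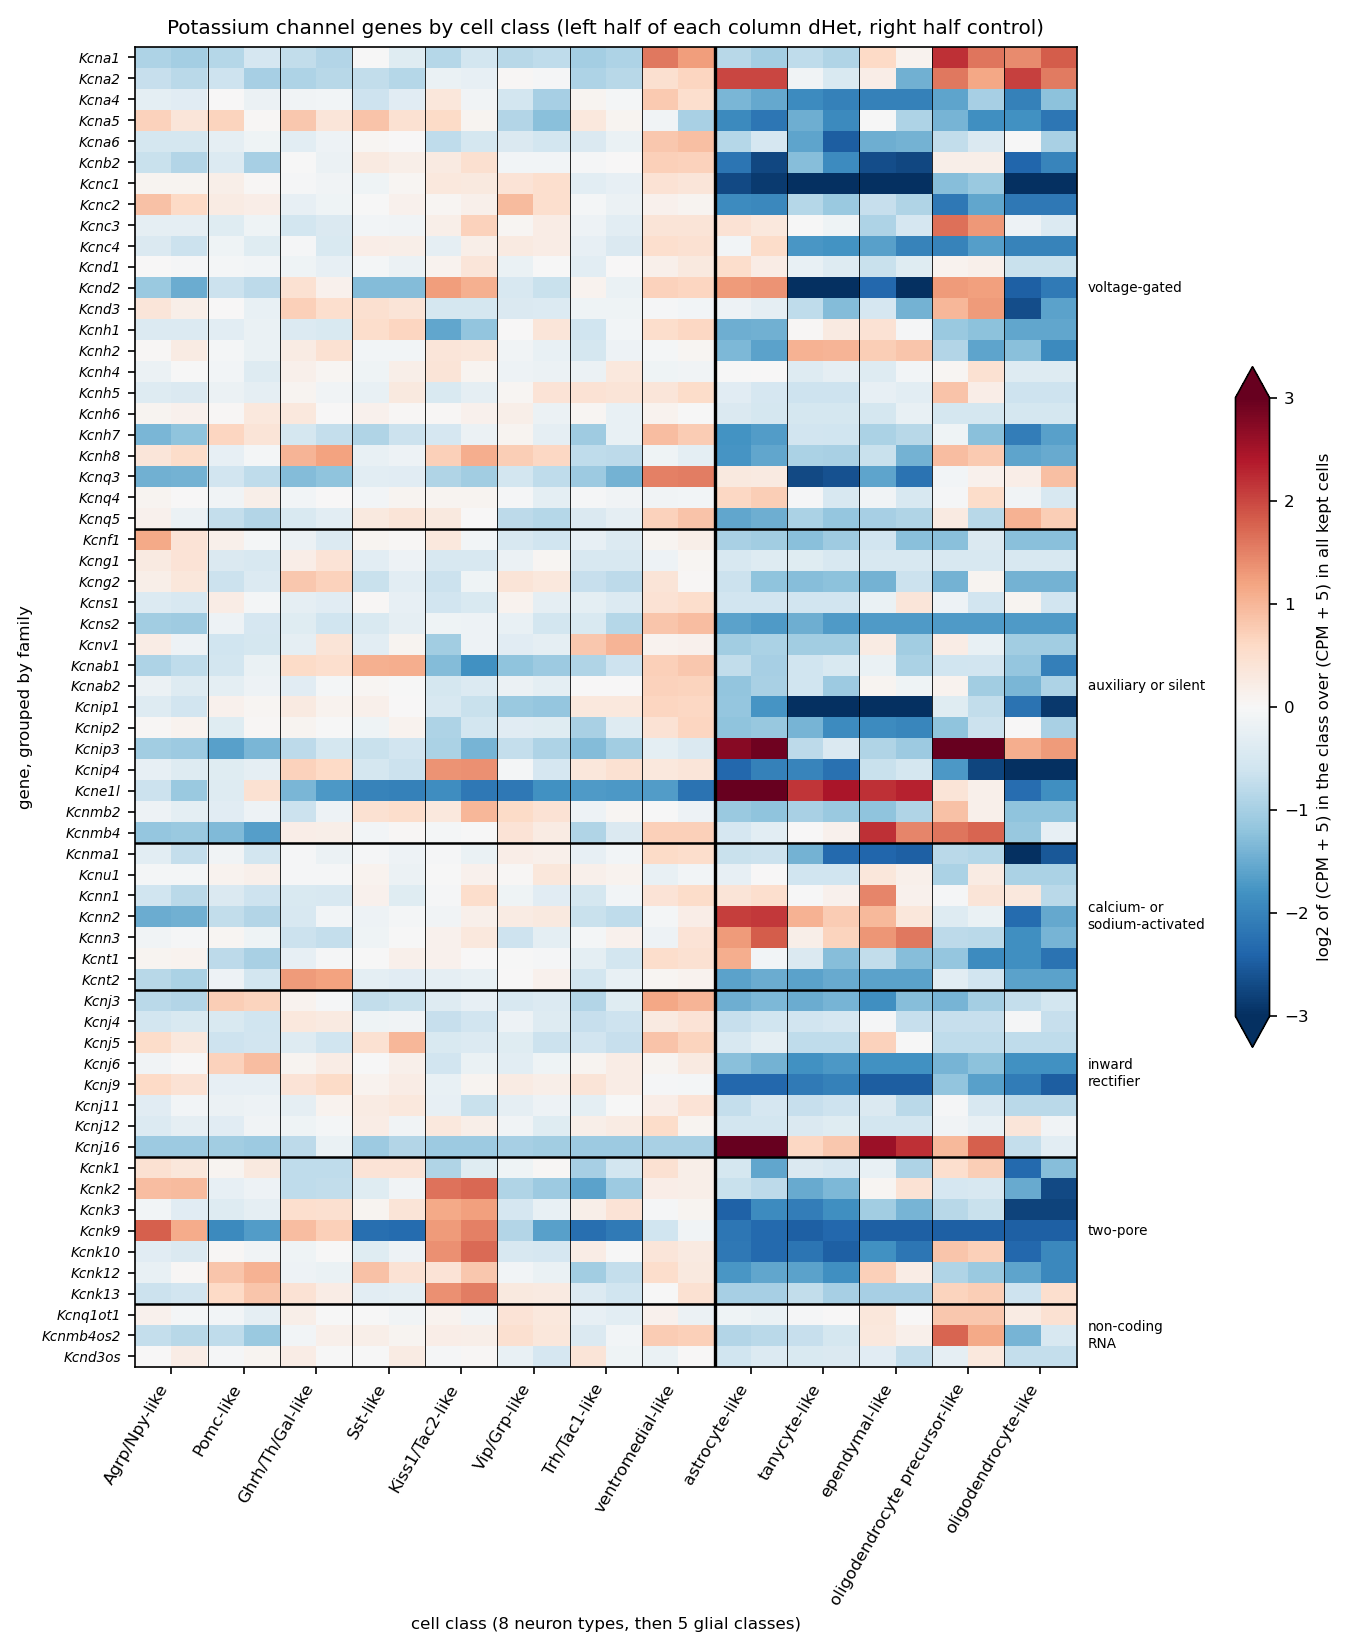
Levels of the potassium channel genes by cell class (2 of the 65 are not drawn), as log2 of the level in the class plus 5 CPM over the level in all kept cells plus 5 CPM, with genes in rows by family and 8 neuron types followed by 5 glial classes in columns. Within each column dHet is on the left and control on the right, and both show the same blocks, such as the two-pore genes in Kiss1/Tac2 neurons and Kcne1l, Kcnj16 and Kcnip3 in glia.

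Neuron types were then compared each with all other neurons, for 64 members and 13568 genes. Kiss1/Tac2 neurons are named for a type that drives the reproductive axis. With coarser or finer clusters their 10 leading genes included Tac2, Esr1 and Tacr3 but not Kiss1. In these neurons 7 of 64 members were at least 2-fold higher in both libraries, where 0.951% of all genes were. This was the largest number among the 8 named types with 5 CPM added, but with 1 CPM added it was 7, against 10 in ventromedial neurons. A further 2 were lower, where 1.97% of all genes were. Kcnk2 had 530 CPM in dHet Kiss1/Tac2 neurons against 165 CPM in other dHet neurons, and 566 CPM in control Kiss1/Tac2 neurons against 167 CPM in other control neurons. The ratios were 3.22 in dHet and 3.4 in control. The other 6 were Kcnk10, Kcnk3, Kcnk9, Kcnk13, Kcnd2 and Kcnip4, so that 5 of the 7 were two-pore channels. Kcnk10 had 80.2 CPM in dHet against 28.7 CPM in other dHet neurons and 103 CPM in control against 29 CPM in other control neurons. Kcnk13, sparse elsewhere, had 20.4 CPM in dHet against 4.45 CPM in other dHet neurons and 23.7 CPM in control against 5.23 CPM in other control neurons. The A-type channel gene Kcnd2 and its KChIP partner Kcnip4 were high together: Kcnd2 had 252 CPM in dHet and 219 CPM in control, and Kcnip4 had 170 CPM in dHet and 174 CPM in control. In other neurons Kcnd2 had 97.3 CPM in dHet and 96.9 CPM in control, and Kcnip4 had 67.7 CPM in dHet and 67.8 CPM in control. The class is small, with 106 dHet and 112 control cells.

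Since Kcnk2, Kcnk10 and Kcnip4 were high together in this type, their promoters are shown, taken from RefSeq on GRCm38.p6 as 250 bases before to 50 bases after the start, 5′ to 3′ on the gene's strand. The 4 short motifs searched on both strands, with matches in capitals, were the GC box GGGCGG, the TATA box TATAAA, the cAMP response element TGACGTCA and the AGGTCA arm of the oestrogen response element.
Kcnk2 (chr1:189402224-189402523, minus strand): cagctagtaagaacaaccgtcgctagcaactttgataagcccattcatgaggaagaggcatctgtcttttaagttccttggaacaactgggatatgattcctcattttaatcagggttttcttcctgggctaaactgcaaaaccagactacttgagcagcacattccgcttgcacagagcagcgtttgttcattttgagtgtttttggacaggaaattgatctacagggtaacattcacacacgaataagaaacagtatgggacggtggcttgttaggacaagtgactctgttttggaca
Kcnip4 (chr5:49285610-49285909, minus strand): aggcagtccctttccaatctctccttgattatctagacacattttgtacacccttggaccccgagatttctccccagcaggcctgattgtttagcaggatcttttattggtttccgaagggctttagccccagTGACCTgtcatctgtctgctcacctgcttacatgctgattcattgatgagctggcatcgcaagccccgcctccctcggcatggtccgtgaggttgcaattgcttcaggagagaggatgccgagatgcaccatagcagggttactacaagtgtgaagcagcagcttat
Kcnk10 (chr12:98578164-98578463, minus strand): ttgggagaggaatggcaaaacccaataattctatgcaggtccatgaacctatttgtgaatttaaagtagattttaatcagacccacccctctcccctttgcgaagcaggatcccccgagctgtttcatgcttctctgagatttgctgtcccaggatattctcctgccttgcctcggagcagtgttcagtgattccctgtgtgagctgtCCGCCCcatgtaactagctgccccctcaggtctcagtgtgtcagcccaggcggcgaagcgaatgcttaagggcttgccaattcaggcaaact
The Kcnk2 window held none of these motifs. Kcnip4 held an AGGTCA arm 117 bases before the start, read on the opposite strand, and Kcnk10 held a GC box 42 bases before it, also on the opposite strand. Over all 32851 promoters of the table the GC box occurred in 35.7%, the TATA box in 13.6%, the cAMP response element in 1.79% and the AGGTCA arm in 16.3%. Only the first promoter listed for a member was searched, while these percentages cover every promoter listed. Of the 47 members with a promoter in the table, 26 had a GC box, 1 a TATA box, 0 a cAMP response element and 4 an AGGTCA arm. The 3 promoters shown share no motif among the 4 that were searched. Of the other members high in this type, Kcnd2 held a GC box 166 bases before its start, so that it shares this motif with Kcnk10, and Kcnk13 held none of the 4. Kcnk3 and Kcnk9, also high in this type, had no promoter among those used and were not searched.

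Kcnk2 was graded over the neuron types. Behind Kiss1/Tac2 neurons came Agrp/Npy neurons with 323 CPM in dHet and 329 CPM in control, then ventromedial neurons with 195 CPM in dHet and 191 CPM in control. Sst neurons with 129 CPM in dHet and 157 CPM in control and Pomc neurons with 142 CPM in dHet and 150 CPM in control changed places between the libraries and had overlapping counting intervals. Ghrh/Th/Gal neurons had 97.2 CPM in dHet and 98.5 CPM in control. The lowest 2 types were Vip/Grp neurons with 88.3 CPM in dHet and 76.3 CPM in control, and Trh/Tac1 neurons with 51.8 CPM in dHet and 76.4 CPM in control. The last pair did not differ in the control library by more than their counting intervals.

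Another leak channel gene with a wide range over the types was Kcnk9 (chromosome 15, 72501089 to 72546340, minus strand, GRCm38), which in the mouse brain is expressed from the maternal allele. In Agrp/Npy neurons, which drive feeding, it was the 1 member of 64 at least 2-fold higher than in other neurons in both libraries, where 1.11% of all genes were. It had 88.8 CPM in dHet Agrp/Npy neurons against 17.9 CPM in other dHet neurons, and 54.2 CPM in control Agrp/Npy neurons against 16.4 CPM in other control neurons. After every cell was thinned to 4000 UMIs it was no longer past the limit in both libraries. More members were lower in Agrp/Npy neurons: 8 of 64 were at least 2-fold lower than in other neurons in both libraries, where 3.71% of all genes were. They were Kcnd2, Kcnq3, Kcnmb4, Kcnn2, Kcnh7, Kcnj3, Kcns2 and Kcnt2. Kcnq3, which encodes a subunit of the M-current channels, had 13.6 CPM in dHet against 53.3 CPM in other dHet neurons and 13.8 CPM in control against 50.2 CPM in other control neurons. Kcnd2 had 44.6 CPM in dHet against 110 CPM in other dHet neurons and 33.6 CPM in control against 108 CPM in other control neurons. The count of lower members depends on the added value, and was 16 with 1 CPM and 2 with 20 CPM, and 5 after thinning.

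Kcnk9 also differed between the other types. Ghrh/Th/Gal neurons had 46.6 CPM in dHet and 39.3 CPM in control. An unnamed neuron cluster led by Foxb1, Cck and Nxph4 had 107 CPM in dHet and 110 CPM in control, and one led by Ppp1r17 had 65.8 CPM in dHet and 56.9 CPM in control. At the other end, Sst neurons had 0.676 CPM in dHet and 0.517 CPM in control, Trh/Tac1 neurons 0.715 CPM in dHet and 1.21 CPM in control, and Pomc neurons 2.23 CPM in dHet and 3.57 CPM in control. The 3 low types held between 2 and 12 UMIs per library, so only that they are low can be read.

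In ventromedial neurons, the Fezf1- and Nr5a1-marked cells that neighbour the arcuate nucleus, 3 of 64 members were at least 2-fold higher in both libraries, where 1.66% of all genes were, and none was lower, where 1.02% were. Kcnq3, a subunit of the channels that carry the M-current, which acetylcholine suppresses, had 138 CPM in dHet against 32.1 CPM in other dHet neurons and 142 CPM in control against 29.7 CPM in other control neurons. Kcna1, a Kv1 channel that restrains repetitive firing, had 25.3 CPM in dHet against 2.14 CPM in other dHet neurons and 19 CPM in control against 1.62 CPM in other control neurons. The 11.8-fold difference in dHet and 11.7-fold difference in control was similar in both libraries. Kcnj3 had 35 CPM in dHet against 10.8 CPM in other dHet neurons and 31.3 CPM in control against 11.2 CPM in other control neurons.

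With 5 CPM added the remaining types had fewer higher members. Ghrh/Th/Gal neurons are named for cells that make growth hormone-releasing hormone, dopamine or galanin. With finer clusters the type held clusters led by Ghrh, by Tmem114 and by Sp9, and its levels are taken over such cells together. In this type 2 of 64 were higher, where 0.641% of all genes were, and 1, Kcnq3, was lower, where 1.16% were. The higher ones were Kcnt2, with 31.8 CPM in dHet against 9.16 CPM in other dHet neurons and 29.7 CPM in control against 10.3 CPM in other control neurons, and Kcnh8, an ELK channel gene, with 34.4 CPM in dHet against 13.5 CPM in other dHet neurons and 40.2 CPM in control against 13.8 CPM in other control neurons. In somatostatin-expressing Sst neurons 1 was higher, where 0.354% of all genes were, and 2, Kcnd2 and Kcnk9, were lower, where 1.33% were. The higher one was Kcnab1, which encodes a cytoplasmic β subunit that speeds Kv1 inactivation, with 38.8 CPM in dHet against 14.7 CPM in other dHet neurons and 39.5 CPM in control against 15.8 CPM in other control neurons. In Pomc neurons 1 was higher, where 0.383% of all genes were, and 2, Kcnmb4 and Kcnk9, were lower, where 1.33% were. The higher one was the glial gene Kcne1l, with 13.6 CPM in dHet against 3.35 CPM in other dHet neurons and 28.6 CPM in control against 1.96 CPM in other control neurons, in a class of 85 control cells. In Vip/Grp neurons none of the 64 was higher, where 0.988% of all genes were, nor in Trh/Tac1 neurons, where 0.545% were. Both types differed by lower members. In Vip/Grp neurons 5 of 64 were lower, where 1.33% of all genes were, namely Kcnk2, Kcnk9, Kcnip1, Kcna5 and Kcnab1. Kcnip1 had 24.5 CPM in dHet against 70.3 CPM in other dHet neurons and 23.8 CPM in control against 68.3 CPM in other control neurons. The count of 5 is sensitive to the cells taken, and was 12 with the cells of the merged table and 11 with doublets kept. In Trh/Tac1 neurons 3 of 64 were lower, where 1.36% of all genes were, namely Kcnk2, Kcnk9 and Kcnq3. Kcnq3 had 18.6 CPM in dHet against 49.2 CPM in other dHet neurons and 13.9 CPM in control against 48.8 CPM in other control neurons. With 20 CPM added in place of 5 no higher member was left in Ghrh/Th/Gal, Sst or Pomc neurons, 4 were left in Kiss1/Tac2 and 1 in ventromedial neurons.

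**Figure D3:**
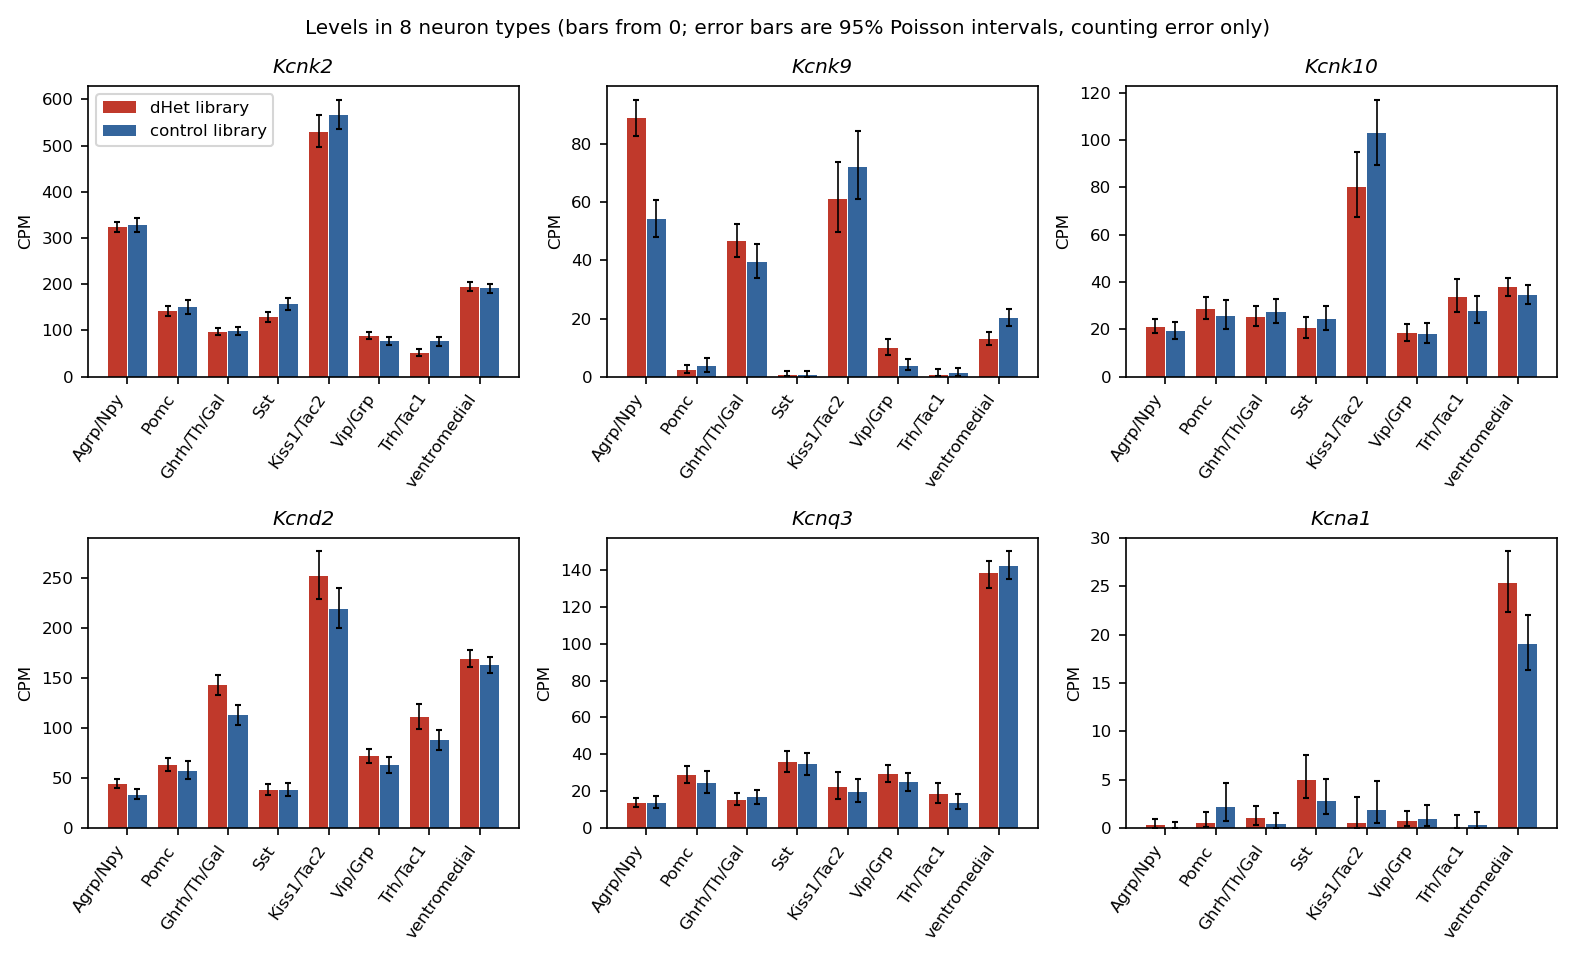
Levels in CPM of 6 members, Kcnk2, Kcnk9, Kcnk10, Kcnd2, Kcnq3 and Kcna1, in the 8 named neuron types, with red dHet bars left of blue control bars and 95% counting intervals as error bars. Kcnk2 is highest in Kiss1/Tac2 neurons at 530 CPM in dHet and 566 CPM in control, Kcnq3 in ventromedial neurons at 138 CPM in dHet and 142 CPM in control, and Kcnk9 is near 0 in Sst and Trh/Tac1 neurons and 88.8 CPM in dHet Agrp/Npy neurons.

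Between the libraries the channel genes as a whole stood at nearly the same level. In neurons the 65 members summed to 1910 CPM in dHet and 1850 CPM in control, a ratio of 1.04 (1.03 to 1.05), and the 62 coding members to 1480 CPM in dHet and 1470 CPM in control, a ratio of 1.01. In astrocytes the members summed to 1900 CPM in dHet and 1900 CPM in control, a ratio of 0.999 (0.961 to 1.04). In tanycytes they summed to 985 CPM in dHet and 973 CPM in control, a ratio of 1.01 (0.956 to 1.07). By role in neurons the ratio ran from 0.971 in inward rectifiers to 1.03 in voltage-gated channels, with the non-coding RNAs at 1.15 (1.13 to 1.17). In Agrp/Npy neurons the members summed to 1860 CPM in dHet and 1680 CPM in control, a ratio of 1.11 (1.08 to 1.14).

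A fold of 1.5 (5 CPM added to each side, at least 100 UMIs over both libraries) was used to name single members between the libraries. In neurons as a whole 0 of 64 members compared lay past it in either direction, where 0.133% of all genes were higher and 0.199% lower in dHet. The median log2 ratio of the members was -0.01 and that of all genes -0.02. In Agrp/Npy neurons 2 of 37 were higher and 0 lower, where 0.718% of all genes were higher and 0.802% lower. In Ghrh/Th/Gal neurons 0 of 37 lay past it (0.235% of all genes higher, 0.605% lower), in Sst neurons 0 of 34 (0.245% higher, 0.587% lower), in Kiss1/Tac2 neurons 0 of 17 (0.377% higher, 1.59% lower), in Vip/Grp neurons 0 of 35 (0.451% higher, 0.948% lower) and in Trh/Tac1 neurons 0 of 18 (0.276% higher, 1.52% lower). In ventromedial neurons 1 of 55 was higher and 0 lower, where 0.305% of all genes were higher and 0.601% lower. Pomc neurons, with fewer than 100 control cells, were described by level only.

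Kcna5, which encodes the delayed rectifier Kv1.5 known from the atrium and from smooth muscle (chromosome 6, 126532551 to 126535412, minus strand, GRCm38), was the member with the largest log2 ratio over all neurons and the 1 past the limit in ventromedial neurons. It had 24.1 CPM in dHet and 15.5 CPM in control neurons, a ratio of 1.55 (1.43 to 1.68) and a log2 ratio of 0.50 with 5 CPM added. In ventromedial neurons it had 16.2 CPM in dHet and 6.57 CPM in control, a ratio of 2.46 (1.82 to 3.36) and a log2 ratio of 0.87, which falls inside the limit with 20 CPM added. Values in the other types followed the same direction: 31.5 CPM in dHet and 24 CPM in control Agrp/Npy neurons, 34.9 CPM in dHet and 24 CPM in control Ghrh/Th/Gal neurons, and 36.3 CPM in dHet and 26.3 CPM in control Sst neurons. The dHet library was the higher one in all 8 named types and all 7 unnamed neuron clusters, with the lowest ratio, 1.08, in the cluster led by Crabp1, Tcf7l2 and Nts and the highest, 2.57, in the cluster led by Ppp1r17. Of the 64 members compared over these 15 groups, 2 were higher in dHet in every group, Kcna5 and Kcnq1ot1, where 0.7% of all genes were, and 0 were lower in every group, where 2.35% were. The member closest to that was Kcnv1, lower in 13 of the 15. The 15 groups come from the same 2 libraries and are not replicates. Kcnq1ot1 had 415 CPM in dHet and 360 CPM in control neurons, a ratio of 1.15 (1.13 to 1.17), but 379 CPM in dHet and 395 CPM in control tanycytes.

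At the lower end the 3 members with the lowest log2 ratios over all neurons were Kcnn3, Kcnj11 and Kcnv1, all inside the limit. Kcnn3 had 9.56 CPM in dHet and 12.2 CPM in control neurons, a ratio of 0.782 (0.702 to 0.87) and a log2 ratio of -0.24, and was lower in 12 of the 15 groups. Kcnj11 had 3.49 CPM in dHet and 4.81 CPM in control neurons, a ratio of 0.724 (0.607 to 0.863) and a log2 ratio of -0.21, and was also lower in 12. Kcnv1, a silent subunit, had 5.29 CPM in dHet and 6.7 CPM in control neurons, a ratio of 0.79 (0.683 to 0.913), with a log2 ratio of -0.19 that was -0.07 after thinning. Kcnn3 was the lowest member in ventromedial neurons too, with 10.9 CPM in dHet and 18.6 CPM in control, a ratio of 0.585 (0.457 to 0.748) and a log2 ratio of -0.57, just inside the limit. In Agrp/Npy neurons the lowest log2 ratios were -0.26 for Kcnk12, -0.21 for Kcnh2 and -0.18 for Kcnh8, with counting intervals of the ratio that hold 1 for each, and after thinning those of Kcnh2 and Kcnh8 were 0.09 and 0.25.

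In Agrp/Npy neurons the 2 members past 1.5-fold were Kcnk9 and Kcnf1. Kcnk9 had 88.8 CPM in dHet and 54.2 CPM in control, a ratio of 1.64 (1.43 to 1.88) and a log2 ratio of 0.67. The size of that log2 ratio moved beyond its counting interval to 1.45 after thinning to 4000 UMIs and to 0.88 with cells weighted equally. Kcnf1, a silent subunit that makes no channel alone, had 21.1 CPM in dHet and 10.7 CPM in control, a ratio of 1.97 (1.47 to 2.69) and a log2 ratio of 0.73. With 20 CPM added neither was past the limit. Kcnk2 in the same cells had 323 CPM in dHet and 329 CPM in control, a ratio of 0.983. Kcnk9 was higher in dHet in 7 of the 15 neuron groups and lower in 8. Over all neurons it had 27.5 CPM in dHet and 19.8 CPM in control, a log2 ratio of 0.39. Outside Agrp/Npy neurons it had 17.9 CPM in dHet and 16.4 CPM in control. The mix of types also differed, with Agrp/Npy neurons 336 of 2983 dHet and 176 of 2405 control neurons. The cluster led by Foxb1, also high in Kcnk9, had 74 dHet and 35 control cells. The part of this mix in the value over all neurons was not tested. Ghrh/Th/Gal neurons had 46.6 CPM in dHet and 39.3 CPM in control, a ratio of 1.18 (0.977 to 1.44). The highest ratio, 2.61 (1.48 to 4.87), was in Vip/Grp neurons with 9.85 CPM in dHet and 3.78 CPM in control, on 56 dHet and 16 control UMIs, of which the top 5 cells of each library held 62.5% in dHet and 50% in control. Ventromedial neurons had 13.1 CPM in dHet and 20.2 CPM in control, a ratio of 0.646 (0.514 to 0.812), but their log2 ratio of -0.48 was -0.00 with cells weighted equally. Kiss1/Tac2 neurons had 61.1 CPM in dHet and 72.2 CPM in control, a ratio of 0.846 (0.653 to 1.09). The 21 immediate early and heat shock genes, which respond to stimulation and to tissue dissociation, summed to 478 CPM in dHet and 1550 CPM in control Agrp/Npy neurons, to 270 CPM in dHet and 471 CPM in control ventromedial neurons, and to 359 CPM in dHet and 721 CPM in control neurons as a whole. The median UMI count per cell was 27773.5 in dHet and 31803.5 in control Agrp/Npy neurons. The part of either in the channel values was not tested.

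**Figure D4:**
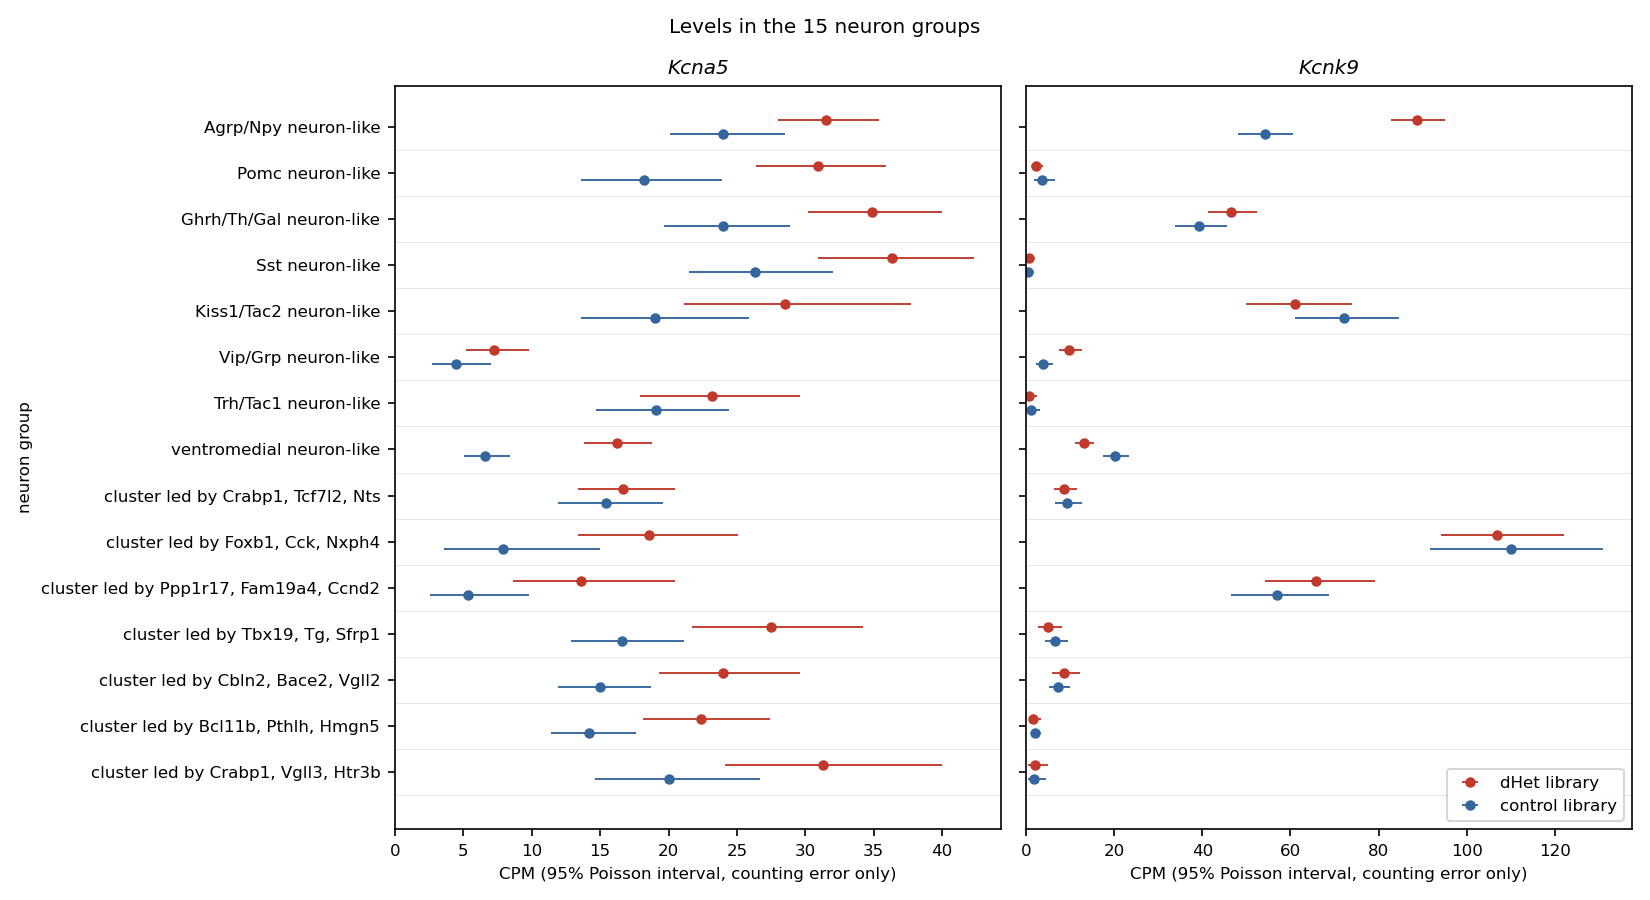
Levels in CPM of Kcna5 and Kcnk9 in 15 neuron groups, 8 named types and 7 unnamed clusters down the page, with the red dHet point above the blue control point and lines for 95% counting intervals. For Kcna5 the dHet value is the higher of the pair in all 15, and for Kcnk9 it is higher in Agrp/Npy neurons at 88.8 CPM, against 54.2 CPM in control, and lower in ventromedial neurons at 13.1 CPM, against 20.2 CPM in control.

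In glia more members lay past 1.5-fold, on fewer UMIs. In astrocytes 3 of 19 were higher and 1 lower, where 1.05% of all genes were higher and 1.69% lower. The higher ones were Kcnt1, the sodium-activated channel Slack, with 44.7 CPM in dHet and 16.9 CPM in control, a ratio of 2.64 (1.85 to 3.82); Kcnk1, the leak channel TWIK1, with 27.7 CPM in dHet and 11 CPM in control, a ratio of 2.51 (1.61 to 4.01); and Kcnip1, with 23.8 CPM in dHet and 13.8 CPM in control, a ratio of 1.72 (1.13 to 2.67). The lower one was Kcnc4, a Kv3 channel gene, with 13.8 CPM in dHet and 24 CPM in control, a ratio of 0.575 (0.375 to 0.874). These rest on 28 to 126 UMIs per library, and both thinning to 4000 UMIs and leaving out the 5 cells with most UMIs of a gene brought members under the minimum of 100 UMIs. After thinning none of the 4 was left past the limit, with log2 ratios of 1.27 for Kcnt1, 1.17 for Kcnk1, 0.71 for Kcnip1 and -0.35 for Kcnc4, against 1.18, 1.03, 0.61 and -0.62 with all UMIs. Without the 5 cells 1 was left, Kcnt1, while the log2 ratios of the 4 were 1.33, 1.12, 0.69 and -0.62. Kcnt1 did not differ in this way in neurons, at 18.3 CPM in dHet and 19.3 CPM in control. Neuron markers in astrocytes were higher in dHet for 7 of 12, with none at 0, a range of 3.19 to 99.3 CPM in dHet and 1.97 to 72.9 CPM in control, and sums of 311 CPM in dHet and 269 CPM in control. Their part in the difference was not tested. Of the members with high levels in astrocytes, 3 stood close together between the libraries. Kcne1l had 240 CPM in dHet and 259 CPM in control, Kcnj16 had 111 CPM in dHet and 94.2 CPM in control, and Kcnd2 had 254 CPM in dHet and 270 CPM in control. Kcnn3, inside the limit, had 38.3 CPM in dHet and 57.9 CPM in control astrocytes, a ratio of 0.661 (0.511 to 0.854) and a log2 ratio of -0.54. In tanycytes Kcnn3 was under the minimum of 100 UMIs, with a ratio of 0.641 (0.409 to 0.988).

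In tanycytes 1 of 10 members was higher and 0 lower, where 1.51% of all genes were higher and 1.78% lower. This was Kcnma1, with 33.3 CPM in dHet and 15.3 CPM in control, a ratio of 2.18 (1.47 to 3.25) on 73 dHet and 43 control UMIs. The log2 ratio was 0.92, against 0.26 after thinning every cell to 4000 UMIs and 0.29 with finer clusters. Without the 5 cells with most UMIs of it the log2 ratio was 0.96 but the gene fell under the minimum of 100 UMIs, so that 0 of 8 members were left past the limit. Oligodendrocyte precursor markers in tanycytes were higher in dHet for 8 of 9, with none at 0 in both libraries, a range of 0.456 to 8.67 CPM in dHet and 0 to 5.69 CPM in control, and sums of 36.5 CPM in dHet and 17.4 CPM in control. In the precursors themselves these markers summed to 8410 CPM in dHet and 8930 CPM in control, and Kcnma1 had 53.3 CPM in dHet and 51.4 CPM in control. Neuron markers in tanycytes were higher in dHet for 8 of 12, with none at 0, a range of 1.37 to 677 CPM in dHet and 1.07 to 823 CPM in control, and sums of 937 CPM in dHet and 1010 CPM in control. The part of either list in the Kcnma1 value was not tested. In astrocytes Kcnma1 had 59.2 CPM in dHet and 60.7 CPM in control. Tanycytes had the largest summed level of immediate early and heat shock genes among the classes compared, at 2940 CPM in dHet and 6400 CPM in control, and its part in the Kcnma1 value was not tested.

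**Figure D5:**
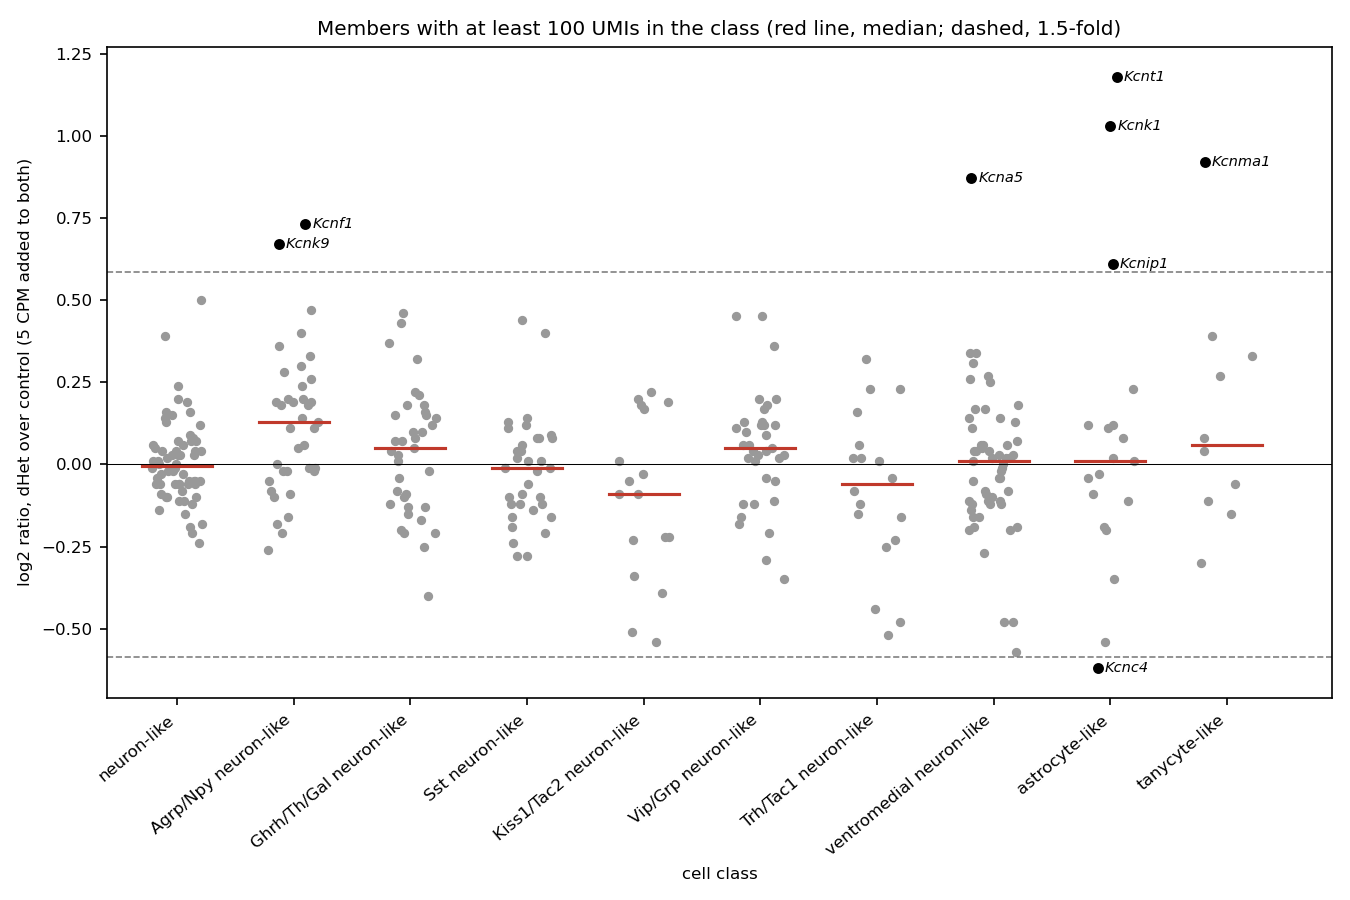
Log2 ratio of dHet over control for each member compared, by cell class, with 1 point per member, dashed lines at a 1.5-fold difference on either side and a red line at each median. Neurons as a whole have no point past either line, Kcna5 in ventromedial neurons is at 0.87, and astrocytes and tanycytes, with 19 and 10 members compared, are more spread.

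A list of 35 genes that work with potassium channels or keep the potassium gradient was set beside the members. In neurons 32 were compared and 0 lay past 1.5-fold, with a median log2 ratio of -0.04 beside -0.02 for all genes. In astrocytes 17 and in tanycytes 14 were compared, and 0 lay past 1.5-fold in either. The median log2 ratio was 0.08 in astrocytes beside -0.02 for all genes, and -0.01 in tanycytes beside -0.01 for all genes.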

How the data were processed

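The authors deposited a matrix of counts (UMIs per gene and cell) for each library and a merged table of counts, made with Cell Ranger 3.0.2 per the file headers on mm10 per the submitters' processing notes. Libraries used 10x 3′ chemistry, per the labels' protocols. The annotation and strand setting are not given in the sources used here. From these counts, cells with at least 500 genes and at most 20% mitochondrial UMIs were kept, doublets were removed with Scrublet (31 dHet, or 0.779%, and 23 control, or 0.642%, at 4% expected), and cells were clustered with scanpy 1.11.5 in Python 3.11.15 (2000 variable genes without mitochondrial, ribosomal, haemoglobin, sex-marker, Kcn, Irx3 or Irx5 genes, 30 components, 15 neighbours, Leiden resolution 1). Clusters were named from marker lists. UMIs were summed per class and library and given as CPM with exact Poisson intervals, and ratios with exact conditional binomial intervals (scipy 1.17.1). A member was compared where a class had at least 100 UMIs of it over both libraries and at least 100 cells in each library, with 5 CPM added to both sides.

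The labels gave 2 groups, with 1 library each, so no test and no p-value was made. Single members were named from the 3 highest and 3 lowest ratios in a class, up to 4 with the highest relative level in each class, and up to 6 with the most UMIs in each family. The members and lists were chosen with earlier results of these data known. The fold limit and the ratio intervals were tested on simulated Poisson counts per class, with no variation between cells or animals. Clustering and naming of cells were not simulated, so that test does not cover counts held by a few cells. Other pseudocounts, UMI minimums, cell sets, resolutions, thinning to 4000 UMIs and leaving out the 5 cells with most UMIs were tried. Promoters and positions came from RefSeq and the reference annotation of GRCm38. Fewer than 100 control cells kept Pomc neurons, and small glial classes, out of the comparison between libraries. Results for a few genes are not reported here.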

Additional observations from a re-analysis of the deposited data

Results flagged for a closer look

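Kcnk9, dHet over control, had a ratio of 1.64 in Agrp/Npy neurons and 0.646 in ventromedial neurons, which differ 2.54-fold. It was singled out because the ratios point in opposite directions, with counting intervals that exclude 1 in both classes. Each genotype had 1 library, so the difference between the classes was not tested. With cells weighted equally the log2 ratio in ventromedial neurons was -0.00, against -0.48 with UMIs summed. Kcnc4 had a ratio of 1.53 in Ghrh/Th/Gal neurons and 0.575 in astrocytes, which differ 2.66-fold, and was singled out in the same way, untested.

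Kcnk1, singled out in the same way, had a ratio of 2.51 (1.61 to 4.01) in astrocytes. In Kiss1/Tac2 neurons it was 0.64 (0.413 to 0.977) and in Trh/Tac1 neurons 0.689 (0.48 to 0.981). Both neuron values lay inside the 1.5-fold limit, and their intervals end close to 1. The astrocyte ratio differed from them 3.92-fold and 3.64-fold. The ratios rest on 78 dHet and 28 control UMIs in astrocytes and 35 dHet and 67 control UMIs in Kiss1/Tac2 neurons. In Trh/Tac1 neurons there were 52 dHet and 89 control UMIs, and the difference was not tested.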

How the results depend on the processing

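No paired analysis was possible because each genotype had 1 library. Of 606 recomputed values of single members, 595 had the same sign as reported, and 38 lay outside the counting interval. These members were picked from the same counts, as the 3 highest, the 3 lowest and any past 1.5-fold in each class. Most settings reuse those counts, so the shared signs are not independent support. The cause of the shifts below was not tested, except that thinning to 4000 UMIs and leaving out the 5 cells with most UMIs leave fewer members to compare by construction. Leaving out the cluster led by Foxb1, leaving out the 3 non-coding members and weighting clusters equally were chosen after seeing the data.

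The summed level in neurons was 1.05 with the median of all genes subtracted and 1.01 without the 3 non-coding members. In tanycytes it was 0.929 after thinning to 4000 UMIs, 0.939 with cells weighted equally and 0.942 with clusters weighted equally. Members past 1.5-fold between dHet and control numbered, with 1 CPM added, 1 in neurons, 1 in Kiss1/Tac2 and 4 in ventromedial neurons; with 20 CPM added, 0 in Agrp/Npy, 0 in ventromedial neurons and 2 in astrocytes. After thinning they numbered 1 in Agrp/Npy neurons (6 members compared), 0 in ventromedial neurons, 0 in astrocytes and 0 in tanycytes. With at least 50 UMIs they numbered 1 in Ghrh/Th/Gal, 1 in Kiss1/Tac2, 1 in Vip/Grp and 2 in Trh/Tac1 neurons. With cells weighted equally they numbered 1 in Sst, 1 in Vip/Grp and 2 in Trh/Tac1 neurons. With the cells of the merged table they numbered 1 in Vip/Grp and 3 in ventromedial neurons, with doublets kept 2 in each of these, and at Leiden resolution 2 they numbered 2 in Vip/Grp, 3 in ventromedial neurons and 0 in tanycytes. Leaving out the 5 cells with most UMIs gave 1 in Vip/Grp neurons, 1 in astrocytes and 0 in tanycytes.

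Members at least 2-fold higher numbered 36 in neurons over glia with 1 CPM added and 7 with 20 CPM added. With 1 CPM added they numbered 2 in Pomc, 1 in Trh/Tac1 and 10 in ventromedial neurons, which then passed the 7 in Kiss1/Tac2 neurons, and with 20 CPM added 0 in Pomc, 0 in Ghrh/Th/Gal, 0 in Sst, 4 in Kiss1/Tac2 and 1 in ventromedial neurons. After thinning they numbered 0 in Agrp/Npy, 0 in Pomc and 1 in Ghrh/Th/Gal neurons, and with cells weighted equally 1 in Ghrh/Th/Gal neurons. With the cells of the merged table they numbered 1 in Vip/Grp, 1 in Trh/Tac1 and 5 in ventromedial neurons, and with doublets kept 1 in Vip/Grp neurons. At Leiden resolution 0.5 there were 0 in Pomc neurons, and at resolution 2 there were 0 in Ghrh/Th/Gal, 1 in Vip/Grp and 1 in Trh/Tac1 neurons. Thinning left out 235 dHet and 352 control cells with too few UMIs.

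Members at least 2-fold lower than in other neurons numbered, with 1 CPM added, 16 in Agrp/Npy, 10 in Pomc, 3 in Ghrh/Th/Gal, 4 in Sst, 6 in Kiss1/Tac2, 9 in Vip/Grp and 10 in Trh/Tac1 neurons. With 20 CPM added they numbered 2 in Agrp/Npy, 0 in Pomc, 0 in Ghrh/Th/Gal, 0 in Kiss1/Tac2, 1 in Vip/Grp and 1 in Trh/Tac1 neurons. After thinning there were 5 in Agrp/Npy and 2 in Ghrh/Th/Gal neurons, and with doublets kept 3 in Ghrh/Th/Gal and 11 in Vip/Grp neurons. Taking the merged table's own cells gave 12 in Vip/Grp neurons. At resolution 0.5 there were 1 in Pomc, 3 in Ghrh/Th/Gal and 3 in Vip/Grp neurons, and at resolution 2 there were 0 in Ghrh/Th/Gal, 12 in Vip/Grp and 5 in Trh/Tac1 neurons.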
